A study of Mus musculus with 2 samples.

Results

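The extracellular matrix genes described here were 59 genes for collagens, other matrix proteins and the enzymes that process and crosslink collagen. They were chosen by name, and every probe set annotated to one of them and to no other gene was read. In all, 57 of the 59 genes had such a probe set, with 100 probe sets among them, of 12393 genes and 20380 probe sets with a single gene name on the array. Fbn1 and Loxl2 were not analysed here. Mammary tumors had been induced in female wild-type FVB mice, 5 weeks old at the start, with medroxyprogesterone (15 mg, injected under the skin), a progestin, and then 4 weekly gavages of 1 mg of the carcinogen DMBA. The GW9662 group was then fed chow containing 0.1% GW9662, an irreversible inhibitor of the nuclear receptor PPARγ, and the control group was fed standard chow. The GW9662 chow began after the last carcinogen dose, and both groups had received the progestin and the carcinogen. Each diet was represented by 1 Affymetrix mouse array, hybridized with RNA from the tumors of 5 mice combined, so there were no replicates and no test between diets could be made. Every difference below compares 2 pooled samples and is given by its size, without a p-value. The value of a probe set is its signal intensity, on a linear scale, and ratios are GW9662 over control.

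The matrix holds cells in place and stores growth factors. Fibrillar collagens form the load-bearing fibers of the stroma. Network collagens, laminins, nidogens and perlecan form the basement membrane under epithelium and around vessels, fat cells and muscle fibers. Small proteoglycans coat the fibers and limit their thickness, elastic fibers give recoil, and lysyl oxidases crosslink collagen and elastin after hydroxylases and chaperones have prepared the chains inside the cell. In the mammary gland most fibrillar matrix is made by fibroblasts, and it becomes denser in many tumors.

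Small proteoglycans, Dpt, several elastic fiber proteins and Fap had lower signals in GW9662 tumors, whereas the 16 measured collagen chains were divided evenly, 8 lower and 8 higher, with a median log2 ratio of 0.03. Each gene was read at its brightest probe set, the one with the highest mean over both arrays. Of 55 matrix genes with a mean signal of at least 100, 34 (61.8%) were lower and 21 were higher on the GW9662 array, with a median log2 ratio of -0.12. Over all 8009 genes with that mean signal, 47.1% were lower and the median was 0.03. The minimum of the study's methods, 300 on one of the arrays, was reached by 52 matrix genes. At the 3-fold threshold of those methods, 2 of the 52 were lower (3.85%), against 2.68% of all 6053 genes with such a signal, and 0 were higher, against 0.215%. At 2-fold, 5 were lower (9.62%, against 4.68% of all genes) and 0 were higher (against 1.02%). At 1.5-fold, 11 were lower (21.2%, against 9.8%) and 3 were higher (5.77%, against 6.39%). The shares at 3-fold and among higher genes thus lay near those of all genes, and the shares lower at 2-fold and 1.5-fold were above them. The other 38 of the 52 genes differed by less than 1.5-fold. Markers of several other cell types were lower, with median log2 ratios of -4.53 for adipocytes, -3.18 for skeletal muscle and -0.66 for endothelium. Medians were -0.32 for fibroblasts and -0.31 for mural and smooth muscle cells, and level for epithelium (0.01) and macrophages (0.03). The part of these cell types in the matrix differences was not tested. In bulk tumor, fewer cells of a type and less RNA per cell cannot be told apart.

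**Figure D1:**
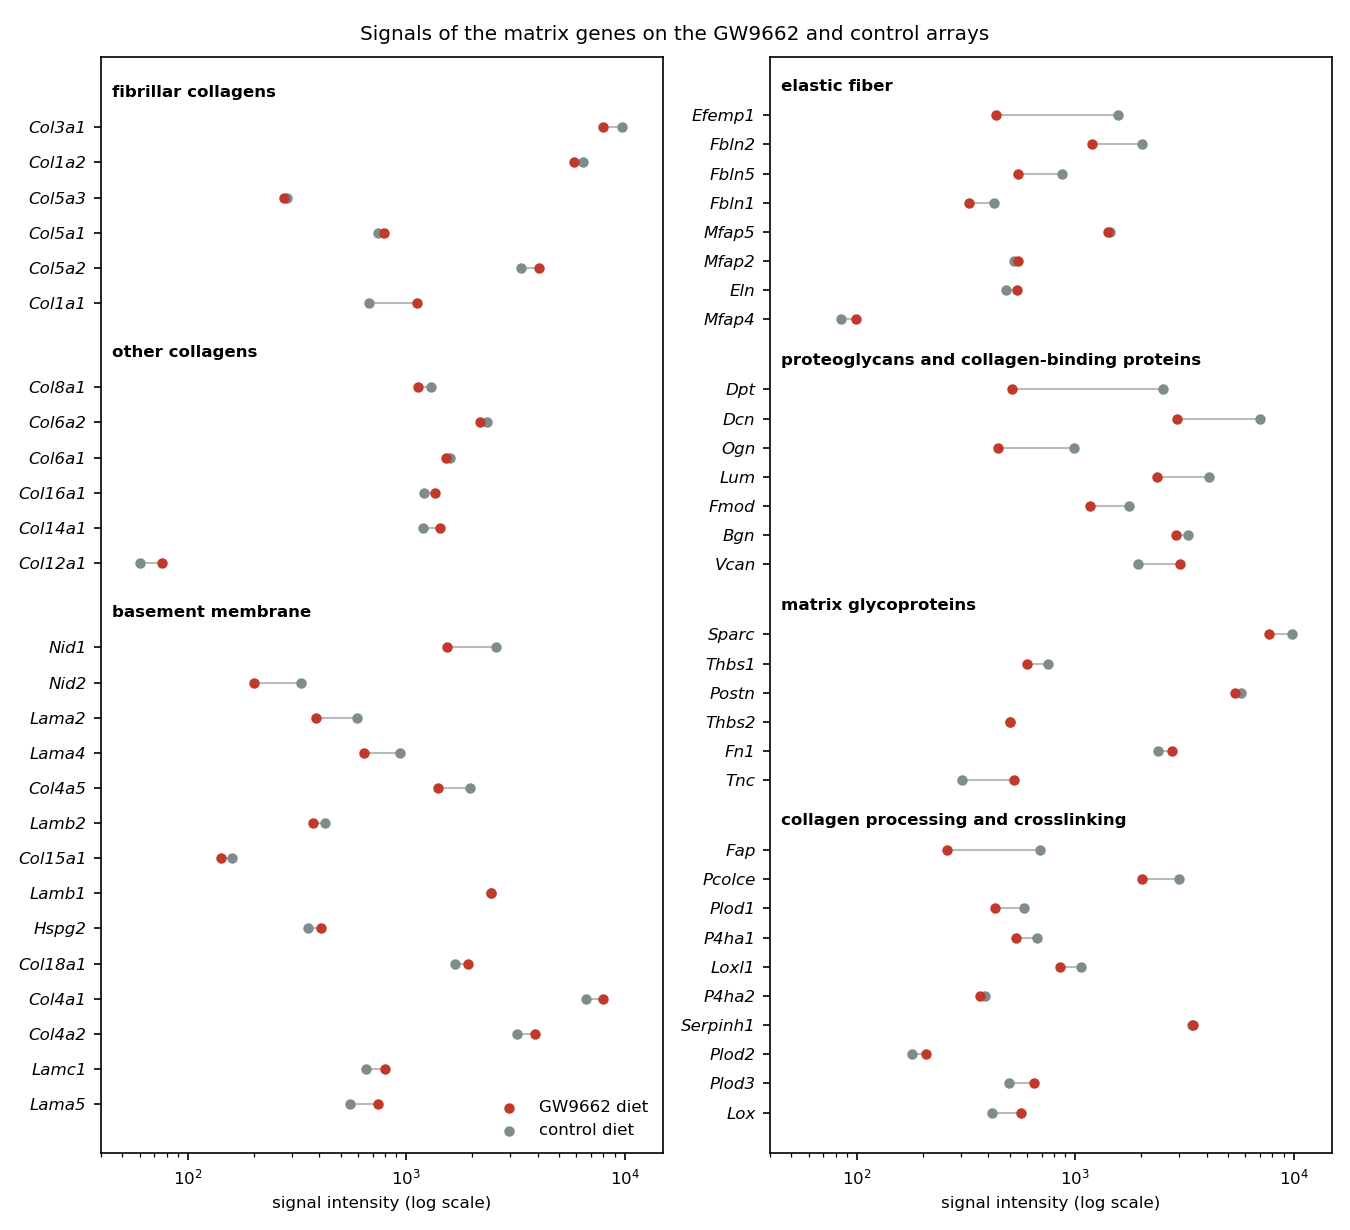
Signal intensity of the 57 matrix genes at their brightest probe set (x axis, log scale) on the GW9662 array (red) and the control array (gray), ordered within each role by the ratio. The longest lines are those of Dpt, Efemp1, Fap, Dcn and Ogn, each with the lower signal on the GW9662 array, while most collagen chains have nearly touching points.

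The spread between probe sets of the same gene was the only internal measure of error that these arrays gave. It had an SD of 0.36 on the log2 scale over 2639 genes and of 0.31 over the 28 matrix genes for which 2 or more probe sets averaged 100 or above. All probe sets fell on the same side of equality in 24 of these 28 genes. The 4 genes with probe sets on both sides were Col1a2, Col4a1, Lama5 and Lamc1. This spread holds no variation between mice or tumors. Among the genes with a single probe set, and so without this check, were Dpt, Dcn, Efemp1, Fap and Tnc.

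Proteoglycans and collagen-binding proteins had the lowest median of the 7 roles, a log2 ratio of -0.80, with 6 of 7 genes lower. Dpt encodes dermatopontin, a small protein that binds decorin and helps collagen fibrils assemble. Its signal was 513 on the GW9662 array and 2522 on the control array, 4.92-fold lower and the lowest ratio among the matrix genes. Only 96 of the 6053 genes had a lower ratio. Dcn encodes decorin, the founding small leucine-rich proteoglycan, which winds around collagen fibrils and binds TGF-beta. It had signals of 2925 in GW9662 tumors and 7005 in control tumors, 2.40-fold lower at its single probe set. Ogn, osteoglycin of the same family, was lower at both probe sets, by 2.23-fold at the brighter (GW9662 441, control 982) and 3.35-fold at the dimmer (GW9662 120, control 403). Lum, lumican, which spaces collagen fibrils, had 2356 in GW9662 tumors and 4107 in control tumors, 1.74-fold lower. Fmod, fibromodulin, which shares a collagen binding site with lumican, was lower at all 6 probe sets, by 1.25-fold to 2.14-fold. At its brightest probe set it had 1173 on the GW9662 array and 1757 on the control array.

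The remaining genes of this role were near level or higher. Bgn encodes biglycan, the closest relative of decorin. Its signals at 3 probe sets were 2878, 2917 and 2540.0 on the GW9662 array and 3279.6, 3175 and 2695 on the control array, so that none differed by more than 1.14-fold. Vcan, versican, is not a small proteoglycan but a large one that binds hyaluronan and marks provisional matrix. Its brightest probe set was 1.55-fold higher (3002 in GW9662 tumors and 1939 in control tumors), and its other probe sets were nearly level (GW9662 738, control 694, and GW9662 425, control 386).

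Promoter windows are shown for Dpt, Efemp1 and Ogn, the genes at least 2-fold lower that had a window in the RefSeq table, and for Tnc and Vcan, those at least 1.5-fold higher that had one. A window runs from 250 bases before to 50 bases after the annotated start, 5′ to 3′ on the gene's own strand, in build GRCm38.p6. The windows lie at chr1:164796413-164796712, plus strand (Dpt), chr11:28852955-28853254, plus strand (Efemp1), chr13:49607765-49608064, plus strand (Ogn), chr4:64046966-64047265, minus strand (Tnc) and chr13:89742463-89742762, minus strand (Vcan). Tnc had 2 windows, and the one with the more upstream start is given. Capitals mark exact matches, on either strand, to TATAAA (the TATA box), CCAAT (the CCAAT box, ATTGG on the other strand) or GGGCGG (a GC box, CCGCCC on the other strand).
Dpt: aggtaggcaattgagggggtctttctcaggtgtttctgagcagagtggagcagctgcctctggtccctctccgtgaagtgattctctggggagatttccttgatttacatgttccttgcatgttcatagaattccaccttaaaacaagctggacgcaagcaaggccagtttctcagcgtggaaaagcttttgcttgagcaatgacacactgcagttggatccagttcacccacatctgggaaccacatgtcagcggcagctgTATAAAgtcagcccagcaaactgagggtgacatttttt
Efemp1: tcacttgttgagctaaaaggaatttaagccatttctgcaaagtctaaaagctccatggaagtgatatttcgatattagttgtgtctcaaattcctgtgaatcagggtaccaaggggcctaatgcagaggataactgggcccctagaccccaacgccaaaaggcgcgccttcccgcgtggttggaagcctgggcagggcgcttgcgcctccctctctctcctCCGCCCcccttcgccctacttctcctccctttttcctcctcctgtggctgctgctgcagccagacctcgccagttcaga
Ogn: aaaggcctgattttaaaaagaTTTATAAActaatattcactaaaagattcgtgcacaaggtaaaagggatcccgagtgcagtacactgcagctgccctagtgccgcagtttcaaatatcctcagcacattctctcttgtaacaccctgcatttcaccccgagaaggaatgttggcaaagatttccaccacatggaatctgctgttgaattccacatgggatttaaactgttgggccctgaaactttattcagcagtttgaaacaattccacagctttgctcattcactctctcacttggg
Tnc: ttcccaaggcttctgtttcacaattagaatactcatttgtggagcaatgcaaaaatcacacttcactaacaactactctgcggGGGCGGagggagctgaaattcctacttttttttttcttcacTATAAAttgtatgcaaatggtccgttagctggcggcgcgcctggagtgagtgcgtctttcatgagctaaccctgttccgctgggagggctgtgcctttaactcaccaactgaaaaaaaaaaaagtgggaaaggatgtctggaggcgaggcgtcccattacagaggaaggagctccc
Vcan: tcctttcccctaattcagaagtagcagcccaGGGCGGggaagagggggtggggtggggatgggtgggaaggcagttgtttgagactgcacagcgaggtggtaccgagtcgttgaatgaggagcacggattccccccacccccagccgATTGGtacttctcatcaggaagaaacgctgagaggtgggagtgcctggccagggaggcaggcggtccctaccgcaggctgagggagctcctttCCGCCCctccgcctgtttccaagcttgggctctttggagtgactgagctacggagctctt
The Dpt window held 1 match to TATAAA only, and the Efemp1 window 1 match to the GC box only. The Ogn window held 2 overlapping matches to TATAAA, 1 on each strand. The Tnc window held 1 match to TATAAA and 1 to the GC box. The Vcan window held 1 match to the CCAAT box and 2 to the GC box. No other matches overlapped. Counted from the annotated start, the match to TATAAA lay at 12, downstream, in the Dpt window and at -126 in the Tnc window. Both Ogn matches lay near the upstream end of their window. Of the 59 matrix genes, 40 had windows in the table, 47 in all. TATAAA was found in 9 of the 47 (19.1%) and in 13.6% of all 32851 windows, CCAAT in 16 (34%, against 37.4%) and GGGCGG in 31 (66%, against 35.7%). The direct repeat AGGTCA, any base, AGGTCA, a strict form of the element bound by PPARs with their partner RXR, was in 0 of the 47 windows and in 13 of all windows (0.0396%). These are matches of letters only, and whether any of them acts as a promoter element was not tested.

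Elastic fiber genes were split between fibulins, which were lower, and the elastin and microfibril genes, which were close to level. The 7 measured genes had a median log2 ratio of -0.37. Across the settings tried, this median ran from -0.66 to -0.20. The first came with the median over probe sets or the second brightest probe set, the last with no signal minimum. Efemp1 encodes fibulin-3, a fibulin of loose connective tissue. It had a signal of 435 in GW9662 tumors and 1573 in control tumors, 3.61-fold lower, and 135 of the 6053 genes had a lower ratio. Fbln2, a fibulin of basement membranes and elastic tissue, was 1.69-fold lower (1193 on the GW9662 array and 2020.0 on the control array). Fbln5, which guides elastin onto microfibrils, was 1.58-fold lower (GW9662 547, control 866). Fbln1 was lower at both probe sets, by 1.30-fold (GW9662 327, control 424) and by 2.10-fold (GW9662 242, control 507). Their mean signals were nearly equal (375.05 and 374.6), and the first of them entered the median. Thus all 4 fibulin genes gave a lower signal. Mfap5, a microfibril glycoprotein, was level at both probe sets (GW9662 1407, control 1438, and GW9662 487, control 497). Eln, elastin itself (GW9662 541, control 484), and the microfibril gene Mfap2 (GW9662 544, control 524) were each within 1.12-fold. Mfap4 was below 100 on both arrays (99.0 in GW9662 tumors and 84.8 in control tumors), and no fold is given for it.

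Fibrillar collagens had a median log2 ratio of 0.03, with 3 genes lower and 3 higher. The exception to their near-level signals was Col1a1, which encodes the more abundant chain of type I collagen. Its signal was 1120.0 in GW9662 tumors and 678 in control tumors, 1.65-fold higher, and the dimmer probe set was 1.67-fold higher (GW9662 423, control 253). Only 202 of the 6053 genes had a higher ratio. Col1a2, the partner chain in the same heterotrimer, did not show this difference. Its brightest probe set had 5879 on the GW9662 array and 6428 on the control array, and the other had 3059 on the GW9662 array and 2572 on the control array. Col3a1, the chain of type III collagen, which is laid down with type I in young and healing stroma, was 1.21-fold lower at its brightest probe set (GW9662 8005, control 9709) and 1.45-fold lower at the other (GW9662 1312, control 1897). Type V collagen starts fibrils and sets their diameter. Its chain Col5a2 was slightly higher at both probe sets, by 1.21-fold (GW9662 4045, control 3346) and 1.28-fold (GW9662 1613, control 1261). Col5a1 (GW9662 792, control 740.4) and Col5a3 (GW9662 276, control 285) differed by no more than 1.07-fold.

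The other collagens outside the basement membrane had a median log2 ratio of -0.07. No gene of this role with a mean signal of at least 100 was beyond 1.20-fold at its brightest probe set. Col6a2 and Col6a1 encode chains of type VI collagen, which forms beaded filaments around cells. Col6a2 was slightly lower at both probe sets (GW9662 2171, control 2351, and GW9662 809, control 874), and Col6a1 was 1.05-fold lower (GW9662 1514, control 1590.3). Col14a1, a collagen on the surface of fibrils, was 1.19-fold higher (1423 in GW9662 tumors and 1194 in control tumors), and 1.07-fold higher at its dimmer probe set (GW9662 606, control 565). Col8a1, a short network collagen of vessel walls, was 1.15-fold lower (1131 in GW9662 tumors and 1299.9 in control tumors). Col16a1, another fibril-associated collagen, was 1.13-fold higher (1360 on the GW9662 array and 1203 on the control array). Col12a1 was below 100 on both (GW9662 75.9, control 60.4).

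**Figure D2:**
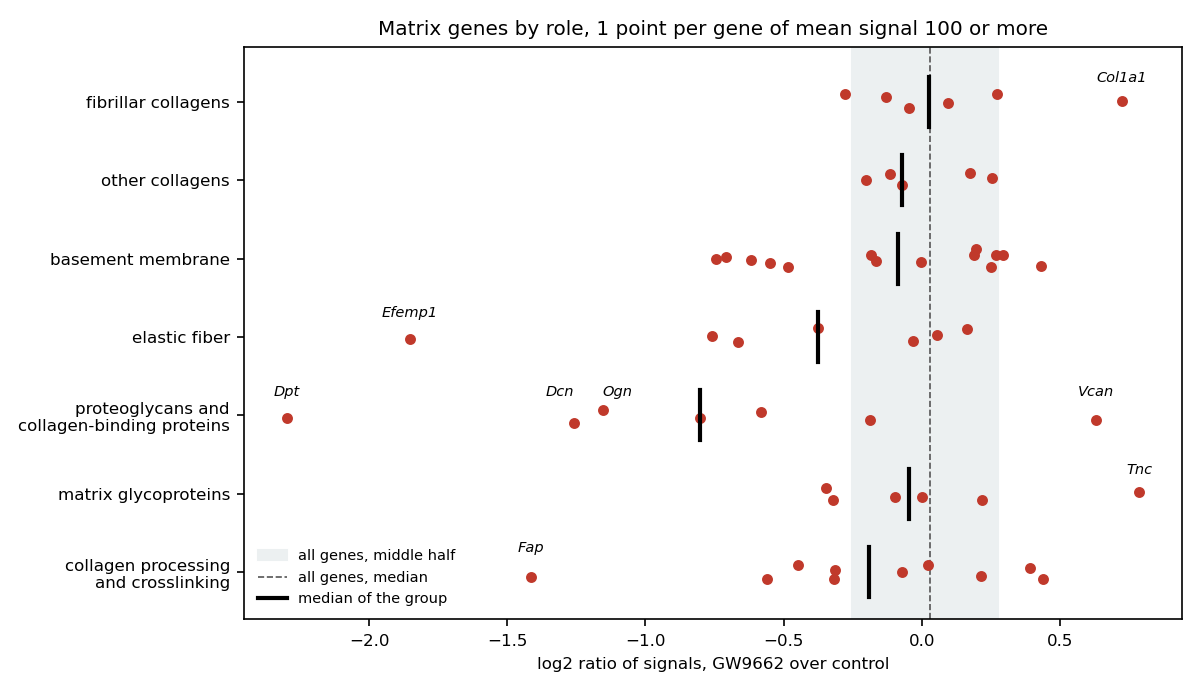
Log2 ratio of signals, GW9662 over control (x axis), of the 55 matrix genes with a mean signal of at least 100, 1 point per gene, grouped by role. Black bars mark the median of each role, -0.80 for proteoglycans and collagen-binding proteins and 0.03 for fibrillar collagens, and the shaded band holds the middle 50 percent of all genes.

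Among basement membrane genes the nidogens, Lama2, Lama4 and Col4a5 were lower. The common type IV chains, Lamc1, Lama5, Col18a1 and Hspg2 were higher at their brightest probe sets. Of these, Col4a1, Lamc1 and Lama5 had probe sets on both sides. Over the 14 genes the median log2 ratio was -0.08, with 8 lower and 6 higher. Nid1 encodes nidogen, which ties the laminin network to the type IV collagen network. It was 1.67-fold lower at its brightest probe set (1538 in GW9662 tumors and 2576 in control tumors) and at least 2.36-fold lower at the other (GW9662 80.1, control 236). A bound is given where the dimmer signal was below 100, which then stands at 100. Its relative Nid2 was 1.63-fold lower (201 on the GW9662 array and 328 on the control array). Lama2, the laminin chain of muscle and nerve basement membranes, was 1.54-fold lower (GW9662 386, control 593). Lama4, the laminin chain of vessels and fat, was 1.46-fold lower (639 in GW9662 tumors and 936 in control tumors). Lama5, the broadly expressed epithelial chain, was higher by 1.35-fold at its brightest probe set (GW9662 741, control 550) but lower at the other (GW9662 358, control 415), so that its direction was not settled. Lamb1 was level at its brightest probe set (2431 on the GW9662 array and 2438 on the control array), close to level at another (GW9662 681, control 736) and lower at the dimmest (GW9662 74.7, control 173). Lamc1, shared by most laminins, was higher by 1.23-fold at its brightest probe set (GW9662 800.3, control 653) and lower at its dimmer one (GW9662 88.0, control 140). The direction of Lamc1 was thus not settled either.

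Col4a1 and Col4a2 encode the chains of the type IV collagen found in nearly all basement membranes. Col4a1 had 7932 in GW9662 tumors and 6659 in control tumors, 1.19-fold higher, and was 1.08-fold lower at its dimmer probe set (GW9662 1751, control 1888). Col4a2 was 1.20-fold higher at its single probe set (GW9662 3888, control 3229). At these brightest probe sets the log2 ratios of the pair were 0.25 and 0.27, within the spread of 0.36 between probe sets. The genes lie head to head on chromosome 8, and their promoter windows are shown because they share 78 bases. The Col4a1 window is chr8:11312777-11313076, minus strand, and the Col4a2 window is chr8:11312555-11312854, plus strand, both in GRCm38.p6, with capitals as for Dpt.
Col4a1: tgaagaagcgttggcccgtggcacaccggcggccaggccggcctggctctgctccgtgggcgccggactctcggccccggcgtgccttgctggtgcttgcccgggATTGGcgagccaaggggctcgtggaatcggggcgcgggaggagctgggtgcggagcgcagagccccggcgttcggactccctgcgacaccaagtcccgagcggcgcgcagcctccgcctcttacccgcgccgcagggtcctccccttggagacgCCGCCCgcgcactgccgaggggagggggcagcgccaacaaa
Col4a2: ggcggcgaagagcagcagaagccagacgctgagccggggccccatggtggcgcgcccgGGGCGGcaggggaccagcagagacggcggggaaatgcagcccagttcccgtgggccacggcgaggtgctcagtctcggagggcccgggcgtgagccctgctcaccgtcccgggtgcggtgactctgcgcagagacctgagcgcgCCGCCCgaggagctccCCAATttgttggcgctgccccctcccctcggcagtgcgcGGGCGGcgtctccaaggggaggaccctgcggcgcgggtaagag
The end of each window is thus the reverse complement of the end of the other. Each held 1 CCAAT box, with 1 GC box in the Col4a1 window and 3 in the Col4a2 window. The Col4a1 GC box lies in the shared bases and is also 1 of the 3 in the Col4a2 window, read on the other strand. Col4a5, an X-linked type IV chain of more restricted membranes, was lower at both probe sets by 1.40-fold (GW9662 1393, control 1948) and 1.32-fold (GW9662 376, control 497). Col18a1, whose C-terminal fragment is endostatin, was higher at both probe sets by 1.15-fold (GW9662 1924, control 1679) and 1.43-fold (GW9662 1632, control 1141). Hspg2, perlecan, was 1.14-fold higher (GW9662 405, control 355), Lamb2 was 1.14-fold lower (GW9662 373, control 424), and Col15a1 was dim (GW9662 142, control 159).

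Of 6 matrix glycoproteins, 5 differed by less than 1.5-fold at their brightest probe sets, the exception being Tnc. Tnc encodes tenascin-C, a protein of wound and tumor stroma. It had a signal of 525 in GW9662 tumors and 304 in control tumors, 1.73-fold higher, the highest ratio of the matrix genes, and 148 of the 6053 genes had a higher one. Sparc, a collagen-binding protein of remodeling matrix, was lower at both probe sets, by 1.27-fold (7722 on the GW9662 array and 9816 on the control array) and by 1.43-fold (GW9662 3590, control 5146). Thbs1, an activator of TGF-beta, was 1.25-fold lower (GW9662 598, control 746), and 1.23-fold lower at its dimmer probe set (GW9662 124, control 153). Postn, periostin, had 5367 in GW9662 tumors and 5734 in control tumors. Fn1, fibronectin, was 1.16-fold higher (GW9662 2775, control 2386), and Thbs2 was level (GW9662 505, control 504). The glycoproteins had a median log2 ratio of -0.05.

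Of 9 collagen processing genes with a signal of 300 on an array, 8 differed by less than 1.5-fold at their brightest probe sets. The exception was Fap, well below the others. Fap encodes fibroblast activation protein, a membrane protease of activated fibroblasts that cuts denatured collagen. Its signal was 259 in GW9662 tumors and 691 in control tumors, 2.66-fold lower, and 180 of the 6053 genes had a lower ratio. Pcolce, which speeds removal of the C-terminal propeptide from procollagen, was lower at both probe sets, by 1.48-fold (GW9662 2013, control 2971) and 1.67-fold (GW9662 875, control 1460.3). Serpinh1, the collagen chaperone of the endoplasmic reticulum, was level at both (GW9662 3469, control 3411, and GW9662 2844, control 2732). Of the crosslinking oxidases, Lox was 1.36-fold higher (562 in GW9662 tumors and 414 in control tumors), and 1.11-fold higher at its dimmer probe set (GW9662 155, control 140.3). Loxl1, an oxidase of elastic tissue, was 1.24-fold lower (GW9662 850.0, control 1056). The lysyl hydroxylases, which prepare the crosslink sites, went different ways. Plod1 was 1.36-fold lower (GW9662 427, control 582), Plod3 was 1.31-fold higher (GW9662 649, control 495), and Plod2 was higher by 1.16-fold (GW9662 206, control 178) and 1.76-fold (GW9662 206, control 117) at its probe sets. The prolyl hydroxylase subunit P4ha1, needed for a stable collagen helix, was 1.25-fold lower (GW9662 537, control 669), and P4ha2 was close to level (GW9662 366, control 385). The 10 measured genes had a median log2 ratio of -0.19.

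**Figure D3:**
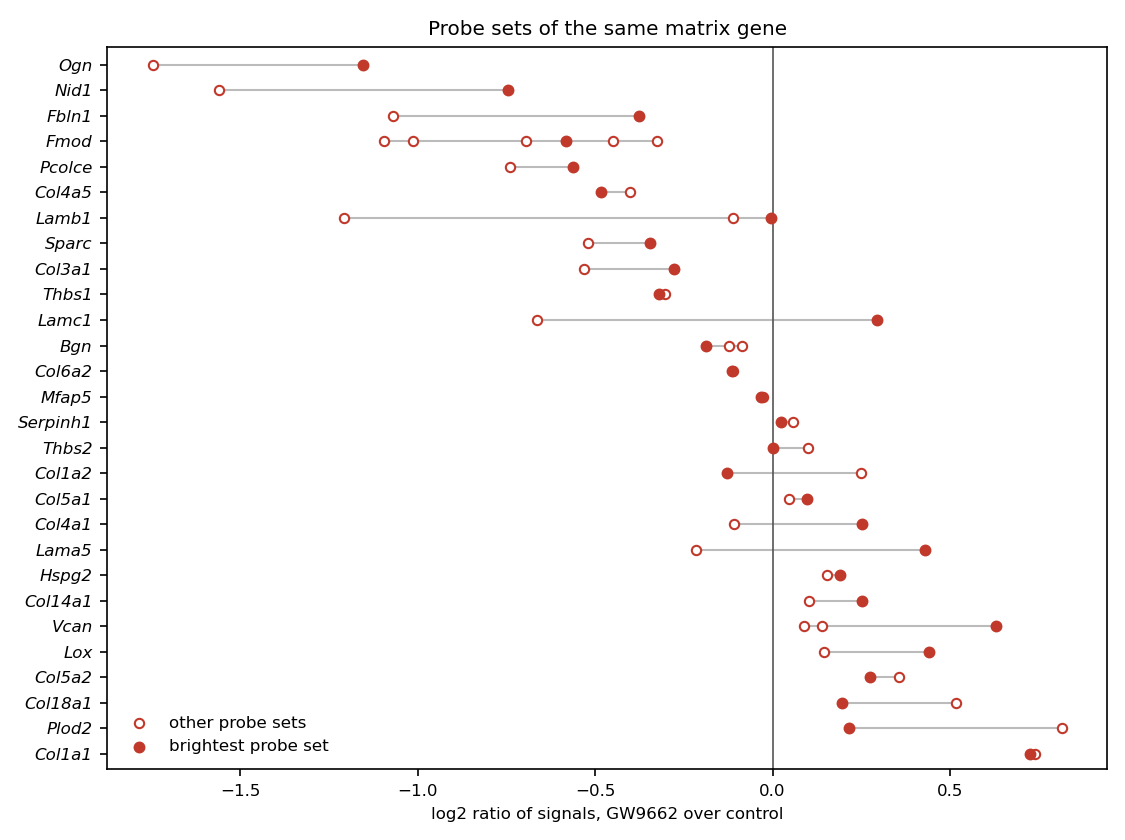
Log2 ratio of signals, GW9662 over control (x axis), at each probe set of mean signal 100 or more, for the 28 matrix genes with at least 2 of them. Filled points are the brightest probe sets and open points the others, and all 6 Fmod points, both Ogn points and both Col1a1 points lie on their own side of 0.

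Other matrix genes were read in the same way. Of 77 further matrix genes on a list, 63 had a probe set and 41 reached a signal of 300. Of these 41, 4 were at least 3-fold lower (9.76%, against 2.68% of all genes) and 0 were at least 3-fold higher (against 0.215%). At 2-fold, 5 were lower (12.2%, against 4.68%) and 1 was higher (2.44%, against 1.02%). At 1.5-fold, 10 were lower (24.4%, against 9.8%) and 1 was higher (2.44%, against 6.39%). The median log2 ratio of the list was -0.14 over the 47 genes with a mean signal of at least 100. Prelp, a small leucine-rich proteoglycan that anchors basement membranes, had 203 in GW9662 tumors and 1314 in control tumors, 6.48-fold lower. Smoc1 and Smoc2 encode calcium-binding relatives of Sparc in basement membranes. Smoc1 was 4.71-fold lower (GW9662 128, control 603), and Smoc2 was 3.76-fold lower (228 in GW9662 tumors and 859.5 in control tumors). Pcolce2, a relative of Pcolce, was at least 3.73-fold lower (GW9662 40.3, control 373). The highest ratios were those of Ccn1, a secreted integrin ligand of injured tissue, 2.25-fold higher (1564 in GW9662 tumors and 696 in control tumors) and 1.61-fold higher at its other probe set (GW9662 826, control 514), Lama1 (GW9662 598, control 424), Ltbp2 (GW9662 599, control 443) and the anchoring fibril collagen Col7a1 (GW9662 1025, control 762). By role, the further proteoglycans had a median log2 ratio of -1.09 (3 of 3 lower), the glycoproteins -0.47 (8 of 10 lower), the processing genes -0.18 (7 of 12 lower), the basement membrane genes -0.04 (3 of 6 lower), the collagens 0.21 (3 of 9 lower) and the elastic fiber genes 0.23 (3 of 7 lower). The elastic fiber and glycoprotein medians thus differed from those of the same roles among the 59 genes, which were -0.37 and -0.05. Col13a1, a membrane-spanning collagen named after its value was seen, was 2.17-fold lower (GW9662 183, control 397).

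Several of the lower genes are neighbors in the genome, in the order of coding genes in RefSeq, a grouping made after their values were seen. Small leucine-rich proteoglycan genes lie in clusters that arose by duplication. On chromosome 10 Dcn is next to Lum, with log2 ratios of -1.26 and -0.80, and Lum is next to Kera, which was below 100 on both arrays. On chromosome 13 Ogn (-1.15) is next to Omd (74.0 in GW9662 tumors and 158 in control tumors), which is next to Aspn (GW9662 213, control 351). On chromosome 1 Fmod (-0.58) is next to Prelp (-2.70). Over both lists, 8 of 8 small leucine-rich proteoglycan genes with a mean signal of at least 100 were lower, with a median of -0.95. Over all genes with that mean signal, 47.1% were lower. Of the 8, Bgn (-0.19) lay within the spread of 0.36 between probe sets, and Omd was below 100 on the GW9662 array. Of other neighbors, Col6a2 (-0.12) and Col6a1 (-0.07), and Col4a1 and Col4a2, lay on the same side at their brightest probe sets, and some others did not. Col3a1 (-0.28) is next to Col5a2 (0.27), and Smoc2 (-1.91) is next to Thbs2 (0.00). Col4a5 (-0.48) is next to Col4a6, whose direction was not settled, since it was higher at its brightest probe set (0.41, GW9662 273, control 205.5) and lower at the other (-0.63, GW9662 143, control 221.5).

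Markers of several other cell types were also lower on the GW9662 array. All 9 adipocyte markers with a mean signal of at least 100 were lower, with a median log2 ratio of -4.53 and a summed signal of 4143 in GW9662 tumors and 38878 in control tumors. Fabp4, the fatty acid binding protein of fat cells, had 3097 in GW9662 tumors and 13670.0 in control tumors, and adiponectin (Adipoq) had 418 in GW9662 tumors and 9668 in control tumors. Skeletal muscle markers were lower as well, 9 of 9 (median -3.18, summed signal GW9662 1169, control 10784), with Acta1 (GW9662 285, control 2488) and Myl1 (GW9662 119, control 1766). Endothelial markers were lower in 9 of 9 (median -0.66, summed signal GW9662 3043, control 4771), with Cdh5 (GW9662 531, control 831) and Emcn (GW9662 549, control 864). Fibroblast markers outside the matrix list were lower in 9 of 11 (median -0.32, summed signal GW9662 12759, control 14730.0). The brightest of them, Fstl1 (GW9662 2789.5, control 3274) and S100a4 (GW9662 2368, control 1573), went opposite ways. Pi16, a marker of adventitial fibroblasts named after its value was seen, was 5.40-fold lower (103 in GW9662 tumors and 558 in control tumors). Mural and smooth muscle markers were lower in 6 of 8 (median -0.31), with Acta2 (GW9662 9275, control 9559) and Tagln (GW9662 4895.4, control 4895) level. Epithelial markers had a median of 0.01 (5 of 10 lower, summed signal GW9662 45983, control 45277), with Krt8 (GW9662 9665, control 9496) and Krt18 (GW9662 9025, control 10018), and macrophage markers had a median of 0.03 (4 of 8 lower), with Lyz2 (GW9662 5695, control 6943) and C1qa (GW9662 3441, control 3142). The luminal keratins Krt8 and Krt18 were thus bright and near level. The basal keratins Krt5 (GW9662 793, control 1256) and Krt14 (GW9662 619.5, control 1022) were 1.58-fold and 1.65-fold lower, both named after their values were seen. Trp63, a basal marker on the same list, was 1.11-fold higher (GW9662 1226, control 1103), so the basal markers went different ways. None of these markers was listed at 0. The part of fat, muscle, vessel and fibroblast content in the matrix differences was not tested.

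**Figure D4:**
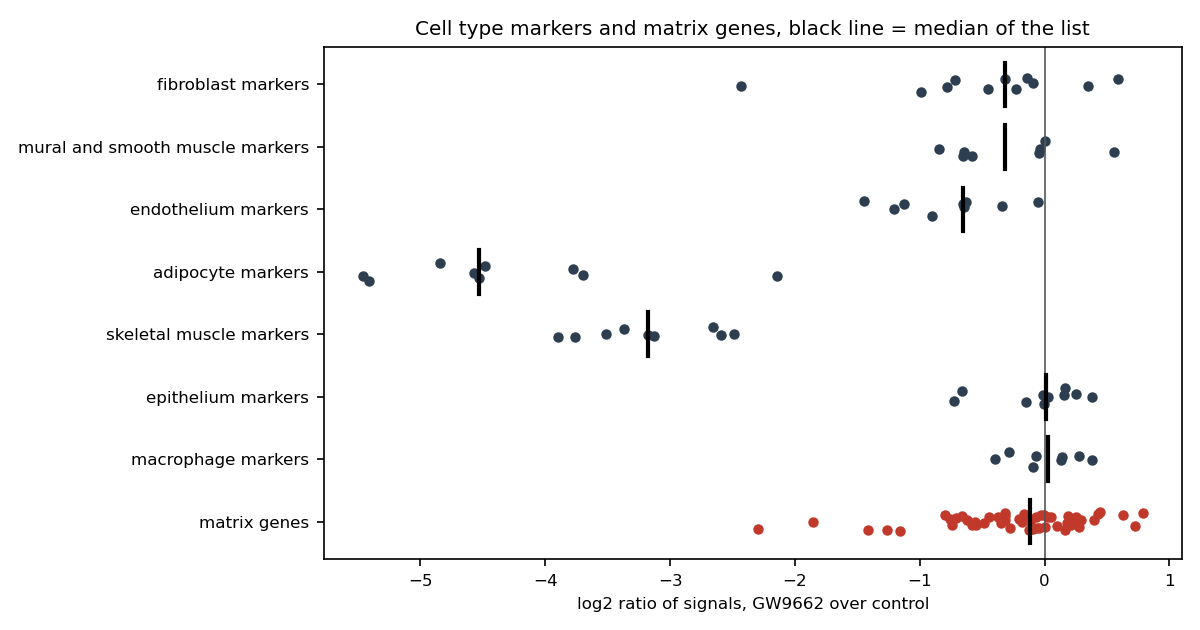
Log2 ratio of signals, GW9662 over control (x axis), of the measured markers of 7 cell types and of the 55 matrix genes, 1 point per gene of mean signal 100 or more, with black bars at the median of each list. Adipocyte and skeletal muscle markers lie furthest to the left, with medians of -4.53 and -3.18, while the matrix genes have a median of -0.12.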

How the data were processed

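Expression was read from 2 Affymetrix mouse arrays of pooled mammary tumor RNA, 1 for the GW9662 diet and 1 for the control diet. The authors made the deposited intensity values, linear and 1 per array for 22690 probe sets, from scanned arrays with Affymetrix GeneChip Operating Software. Scaling and detection calls were not given in the sources used here. With 500.2 on both arrays, the 2% trimmed means were alike, and signals were used as deposited, with a 0 read as 0.1 before log2.

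Gene names came from the platform annotation, with symbols updated by gene identifier to RefSeq names of GRCm38.p6. A single gene was named for 20380 probe sets, several for 691 and none for 1555, and 64 were array controls. Each gene was read at its brightest probe set by mean signal. Calls needed 300 or more on one of the arrays, list medians a mean of at least 100, and bounds used a floor of 100. In each role the 3 largest ratios, the 2 brightest genes and, of further matrix genes, 4 per direction were named, and others are given as counts or briefly. The members, roles and lists were written from general knowledge with earlier results of these data known. Scaling, signal minimums, floors, folds and the choice of probe set were varied. The number of arrays limits the precision of every value. The counting was tested on simulated data whose noise was the spread between probe sets, with no variation between mice or tumors. Scripts ran in Python 3.11.15 with pandas 2.3.3, numpy 2.4.6 and, for plots, matplotlib 3.10.9.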

Additional observations from a re-analysis of the deposited data

How the results depend on the processing

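No paired analysis was possible because each diet had 1 array, and for the same reason no replicate could be left out and no result could lose or gain significance. Of the 52 matrix genes past the signal minimum, 2 were at least 3-fold lower, and this became 5 at 2-fold and 11 at 1.5-fold, while 0 were at least 3-fold higher and 3 at 1.5-fold. Median centring, quantile normalization, other signal minimums, a floor of 100 and other choices of probe set were tried. The counts of matrix genes at a given fold stayed within 1.5 times, and the median ran between -0.14 and -0.10. That median was taken over the matrix genes past the minimum of each setting, all 57 where there was none. The further matrix genes depended more on the minimum. Their 4 genes at least 3-fold lower became 10 at 1.5-fold, and 8 with no signal minimum. The 5 at least 2-fold lower became 8 with a minimum of 100 and 12 with none, the 10 at 1.5-fold became 24 with none, and those higher at 1.5-fold went to 2 with none, against 1. No share over all genes was computed at these other minimums, so the larger counts are not read as a property of the matrix genes. The 1 gene at least 2-fold higher, Ccn1, dropped out (0) with the median over probe sets, the second brightest probe set or without shared probe sets, and 1 was higher at 2-fold and at 1.5-fold in place of 0 at 3-fold. Of 330 recomputed ratios of single matrix genes, 14 in 10 genes moved by at least the SD between probe sets, all of them by reading another probe set. Among these were Vcan (0.14 with the median over its probe sets), Nid1 (-1.15) and Lamc1 (-0.19). Small medians near 0 changed sign with the setting, such as that of fibrillar collagens (0.00 after centring) and basement membrane genes (0.09 with a mean signal of at least 300), so no direction is read from them. The signal range sets a further limit, since differences of genes below 100 on both arrays have no order.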
